A study of Mus musculus with 5 samples.

Results

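Ctsk-high, Acp5-high cells of kidneys with chronic injury are described here. A cell of either CKD library was taken when it held at least 10 UMIs (unique molecular identifiers, 1 for each captured mRNA molecule) of Ctsk and at least 10 of Acp5, at most 1 UMI over Cd3d, Cd3e and Cd3g, and none of Col1a2, among barcodes with 200 or more detected genes and mitochondrial UMIs of 30% or less. The members were thus chosen by their own UMIs of Ctsk, Acp5, Cd3 and Col1a2. The gate took 640 cells, 486 in CKD library 1 and 154 in CKD library 2, of 28820 CKD cells kept and of 60043 cells kept over all 5 libraries. Levels of Ctsk and Acp5 therefore describe how the cells were chosen and were not tested.

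The mice were wild-type male C57BL/6 animals, 8 to 10 weeks old, and their kidneys were digested with collagenase type IV and DNase I. Aristolochic acid I (AAI), a plant nephrotoxin, was injected into the peritoneum at 3 mg/kg every 3 days over 2 weeks. Kidneys were taken at week 2 (AKI, 2 libraries) or at week 4 after 2 weeks without the toxin (CKD, 2 libraries), and 1 library came from controls given vehicle. The study's methods give sample sizes equal to the numbers of libraries and do not say whether a sample was a single mouse. A p-value over the 2 CKD libraries therefore rests on how far a difference between groups of cells varied between those libraries. That variation may be technical.

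Osteoclasts are the bone-resorbing cells of the macrophage lineage. They form when the cytokine RANKL acts on its receptor RANK (Tnfrsf11a) in precursors kept alive by CSF1 through Csf1r; the signal raises NFATc1, which drives the genes for cell fusion, for the proton pump that acidifies the resorption pit, and for cathepsin K (Ctsk) and tartrate-resistant acid phosphatase (Acp5), which degrade its matrix. Macrophages of the kidney that make complement C1q are a different state of the same lineage, specialised in uptake of debris and in antigen presentation. They were the comparison within each library, as cells with at least 10 UMIs over C1qa, C1qb and C1qc, at most 1 of Ctsk, at most 1 of Cd3d, Cd3e and Cd3g, and none of Col1a2, and there were 788 in CKD library 1 and 329 in CKD library 2. Values in T cells of the same library (at least 5 Cd3 UMIs, at most 9 of Ctsk) are given beside them. Free RNA gives UMIs in cells that do not make a transcript, so T cells read it only for genes they do not make. Which genes those are was not tested. With every cell thinned to the same number of UMIs, genes differed. Nfatc1 was found in 17.3% and 19.0% of T cells of CKD libraries 1 and 2 against 7.9% and 10.1% of C1q macrophages. Tnfrsf11a was found in 0.7% and 0.4% against 9.1% and 9.7%. T cell values are therefore not taken as a floor of free RNA.

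Depth differed between the libraries' Ctsk-high cells. In CKD library 1 they fell into a shallow set of 302 cells under 15000 UMIs and a deep set of 184 cells, with a median of 5828 UMIs over all 486. In CKD library 2 the median was 34969 UMIs, and 150 of 154 cells held at least 15000. C1q macrophages had medians of 5814 and 13071 UMIs. Ctsk took 58.5 per 10000 UMIs in the shallow set of library 1 and 69.0 in the deep set, although the gate of 10 UMIs sets a higher lowest share for shallow cells. Lists outside the gate were also lower in the shallow set, with 43.3 against 54.5 per 10000 UMIs over 28 genes of fusion and resorption and 91.5 against 112.7 over 17 proton pump genes. The shallow set held more tubule transcripts, with 34.6 per 10000 UMIs over 14 proximal tubule genes against 9.84 in the deep set, and 43.6 against 8.48 over 12 genes of other tubule segments. It also held more T and NK transcripts, 10.5 per 10000 UMIs over 15 genes against 0.97, where the T cells of the library held 82.8. Their part in the results was not tested, and the calls of named genes that were lost in cells of at least 15000 UMIs, and the list counts that moved by 1.5 times or more there, are given with both values.

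**Figure D1:**
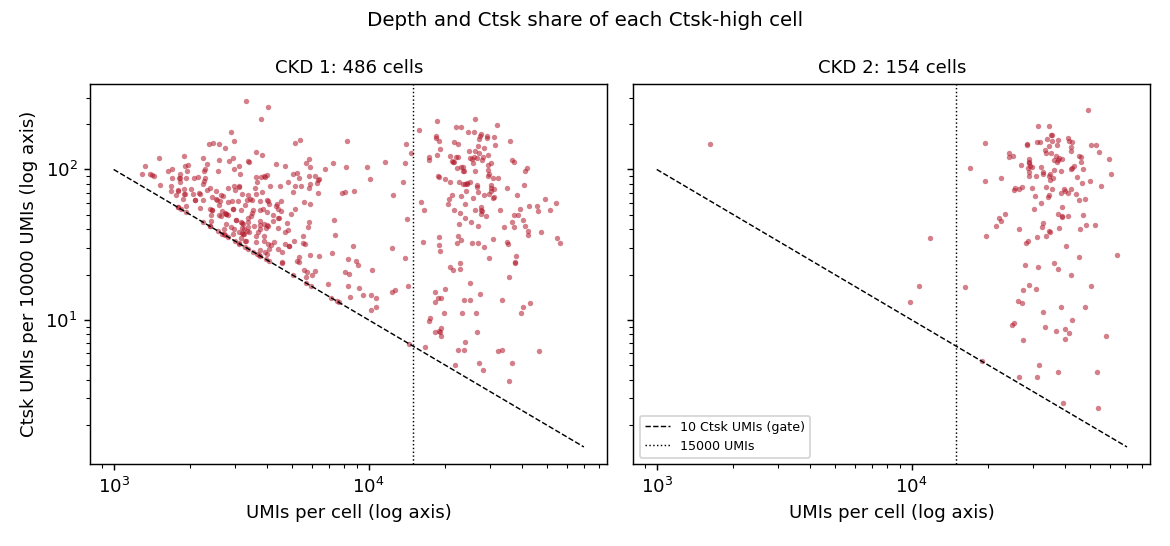
Each point is 1 Ctsk-high cell, with its UMIs on the x axis and Ctsk UMIs per 10000 UMIs on the y axis, both on log axes, for CKD library 1 (486 cells) and CKD library 2 (154 cells). The dashed line is the gate of 10 Ctsk UMIs and the dotted line 15000 UMIs; library 1 holds 302 cells to the left of the dotted line, and library 2 holds 4.

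Other cell types touched the gate. The limit on Cd3 removed 169 barcodes of library 1 and 30 of library 2 that had passed on Ctsk and Acp5, and the limit on Col1a2 removed 8 and 2 more. Among the cells kept, 6 in each library also held at least 10 C1q UMIs, and 62 and 16 held at least 3 UMIs of the core markers of lymphocytes, neutrophils, endothelium or stroma. Exactly 1 Cd3 UMI, the limit of the gate, was held by 139 of 486 cells of library 1 and 37 of 154 of library 2. In library 2, 22 of the 154 cells carried a barcode that also occurs in the control library, and in 21 of these pairs the control barcode was over 20 times shallower. Between the CKD libraries 1 barcode of library 1 and 2 of library 2 among these cells were shared.

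Within the gate Ctsk reached 66.8 per 10000 UMIs in library 1 and 76.8 in library 2, against 0.19 and 0.084 in C1q macrophages. For Acp5 the Ctsk-high cells stood at 86.8 and 93.0 and the C1q macrophages at 1.85 and 2.18. Mmp9, the gelatinase that osteoclasts release, was at 36.2 and 51.8 against 0.22 and 0.40. The summed level of Spp1 (osteopontin) was 15.2 and 3.81 per 10000 UMIs against 21.6 and 4.19 in C1q macrophages and 15.5 and 3.29 in T cells of the same libraries. Among cells of at least 15000 UMIs the median of Spp1 was higher in Ctsk-high cells, 4.95 and 2.59 against 4.06 and 1.38, and the highest single cells were C1q macrophages, at 361 and 149 against 101 and 22.7. These 4 genes are given as a description. Just inside the gate, the 67 cells of library 1 with 10 to 12 Ctsk UMIs held Ctsk at 25.2 and Mmp9 at 11.9 per 10000, and just outside it 84 cells with 7 to 9 held 17.1 and 8.57. In library 2 the same margins held 3 and 7 cells.

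The same gate found few cells elsewhere. The AKI libraries held 2 and 6 such cells, or 0.018% (95% exact binomial interval 0.0022 to 0.064%) and 0.055% (0.020 to 0.12%) of cells kept, against 2.52% (2.30 to 2.75%) and 1.62% (1.38 to 1.89%) in the CKD libraries. The shares were not tested, since an exact permutation test of 2 libraries against 2 cannot go below a p of 0.33, and the intervals cover counting error only. The control library held 2 cells of 603 and 684 UMIs, and both shared their barcodes with CKD library 2 cells over 20 times deeper. The 8 AKI cells held 21253 to 79042 UMIs and 11 to 759 Ctsk UMIs, and the cell with 759 also held 705 Acp5, 551 Mmp9, 39 Atp6v0d2 and 38 Slc9b2 UMIs.

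The osteoclast label was checked against genes outside the gate. After each cell was thinned to 3000 UMIs, Atp6v0d2 was detected in 80.9% of Ctsk-high cells of library 1 and 88.2% in library 2, against 4.1% and 1.6% of C1q macrophages and 3.1% and 0.9% of T cells. Slc9b2, a sodium-proton exchanger of osteoclasts, was seen in 53.1% and 54.2%, against 0.5% and 0.6% of C1q macrophages. The fusion receptors Ocstamp (39.8% and 49.0%) and Dcstamp (28.5% and 27.5%) were at 0.7% or below in T cells. The collagen co-receptor Oscar was found in 12% and 9.8% of Ctsk-high cells and in no thinned C1q macrophage of either library. Itgb3, the integrin chain of the sealing zone, was in 2.6% and 3.9% of Ctsk-high cells, 0.17% and 0.32% of C1q macrophages and 2.6% and 3.3% of T cells. In unthinned cells of at least 15000 UMIs Itgb3 was found in 14.7% and 26% of Ctsk-high cells and in 1.82% and 3.68% of C1q macrophages. Calcr and Siglec15 were each in 0.7% to 1.3%. Thinning left out 104 and 1 Ctsk-high cells and 206 and 21 C1q macrophages; the unthinned shares of Atp6v0d2 in Ctsk-high cells were 89.1% and 99.4%.

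Summed over the cells of each group and library, 11556 genes were tested, and 4344 (37.6%) were called at an adjusted p under 0.05 in edgeR's quasi-likelihood test with the library as a block, 2016 of them (17.4%) higher and 2328 (20.1%) lower in Ctsk-high cells. The median log2 fold change of all genes tested was -0.05. The gates place the groups apart on Ctsk, Acp5 and C1q, so genes that accompany these in a cell had to differ. With the library as a block, the p-values say only whether a difference was large beside its own variation between the 2 libraries. The test estimates that variation with information shared over genes. In every count below, the share of all genes called is the background.

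The machinery of fusion and resorption stood higher in both libraries. Of 28 genes listed, 26 passed the filter on low counts, 23 were called higher and 3 lower, and the median log2 fold change was 2.87 (2.79 with the genes at 0 in C1q macrophages set to their bound). The lowest log2 fold change of the list was -0.77, and the 3 lower genes are not given by name with this list. Atp6v0d2, the osteoclast form of a proton pump subunit that also serves in fusion, stood at 8.32 and 9.19 per 10000 UMIs in libraries 1 and 2 against 0.27 and 0.20 in C1q macrophages, a log2 fold change of 5.26 (SE 0.17, n = 2 libraries, edgeR adjusted p = 2.5e-05). Slc9b2 was at 3.57 and 3.82 against 0.035 and 0.045 (log2 fold change 6.57, SE 0.14, adjusted p = 8e-06). The values of the 2 groups lay far apart in both libraries for both genes.

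Dcstamp stood at 1.42 and 1.67 against 0.10 and 0.13 (log2 fold change 3.75, SE 0.12, adjusted p = 2.5e-05), and Ocstamp at 2.05 and 2.72 against 0.065 and 0.053 (5.33, SE 0.19, adjusted p = 2.9e-05). Both are membrane proteins needed for osteoclast precursors to fuse. Creatine kinase Ckb, which supplies ATP to the resorbing cell, was at 16.0 and 12 against 3.97 and 2.00 (2.32, SE 0.16). The chloride channel Clcn7 rose by a log2 fold change of 1.97 (SE 0.13), carbonic anhydrase Car2, the source of protons, by 2.24 (SE 0.44, adjusted p = 0.0094) and Itgb3 by 3.94 (SE 0.36). For Car2 the C1q level differed between libraries, 0.96 and 0.20, and T cells stood at 1.06 and 0.43.

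Some osteoclast genes were at 0 in every C1q macrophage. Calcr, the calcitonin receptor, gave 23 and 31 UMIs in the Ctsk-high cells, which is at least 7.5-fold and 9.33-fold higher when C1q macrophages are set to a floor of 3 UMIs per library. Siglec15, a DAP12-coupled lectin of osteoclasts, gave 25 and 19 UMIs (at least 8.15-fold and 5.72-fold). Of the further genes of the list, the Rab38 GTPase (log2 fold change 4.56, SE 0.33), Myo10 (3.20, SE 0.14) and Tspan10 (4.50, SE 0.99, on 0.018 and 0.031 per 10000 UMIs) were also higher.

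**Figure D2:**
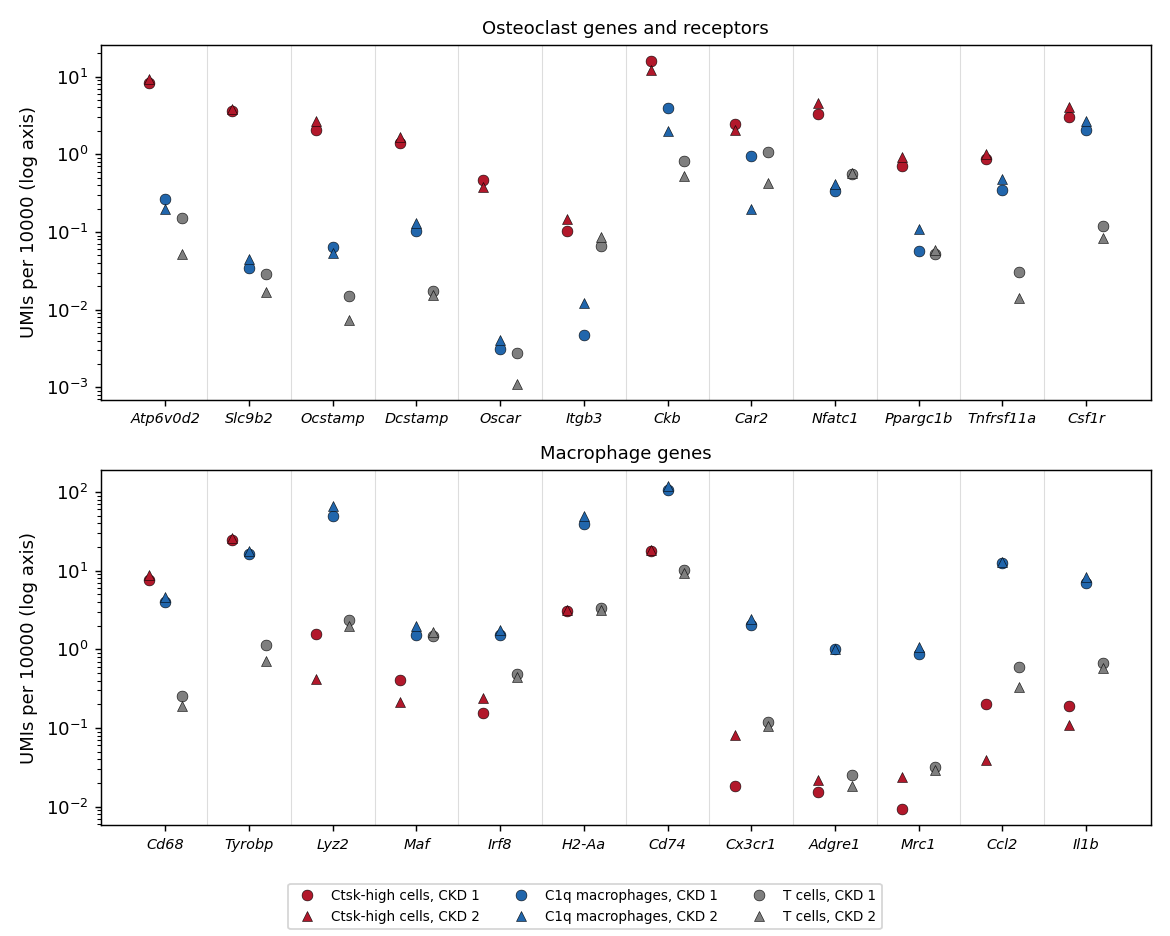
UMIs per 10000 (log axis) of 12 osteoclast genes and receptors and of 12 macrophage genes, summed over Ctsk-high cells (red), C1q macrophages (blue) and T cells (grey) of CKD library 1 (circles) and 2 (triangles). Atp6v0d2 sits at 8.32 and 9.19 in Ctsk-high cells and at 0.27 and 0.20 in C1q macrophages; Lyz2 sits at 1.58 and 0.41 and at 50 and 67.4.

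The largest rises named by rule lay partly outside the osteoclast lists. Mt3, a metal-binding metallothionein, stood at 7.99 and 7.80 per 10000 UMIs against 0.035 and 0.0082 (log2 fold change 8.46, SE 0.32, adjusted p = 2.9e-05). Rufy4, a gene of the fusion and resorption list that acts in autophagy and lysosome trafficking, was at 0.59 and 0.73 against 0.0032 and 0.0020 (7.85, SE 0.28). The metalloreductase Steap4 was at 0.58 and 0.52 against 0.0032 and 0.0020 (7.62, SE 0.28). Mst1r, the receptor of macrophage-stimulating protein, was at 0.58 and 0.56 against 0.0047 and 0.0061 (6.71, SE 0.25), and Oscar at 0.47 and 0.37 against 0.0032 and 0.0041 (6.84, SE 0.29). Pate4 and Nyap2 had no UMI in any C1q macrophage and gave 124 and 86, and 81 and 59 UMIs in Ctsk-high cells, at least 40.4-fold and 25.9-fold, and 26.4-fold and 17.8-fold higher. The rule took only genes with the same sign in both libraries.

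Genes of RANK and CSF1 signalling differed less, by the median of their list, than the genes of fusion and resorption. Whether these receptors act on those genes in these cells was not tested. Of 22 genes of RANK and CSF1 signalling 21 were tested, with 7 higher, 4 lower and a median log2 fold change of 0.22. In cells of at least 15000 UMIs 9 were higher and 2 lower, with a median of 0.31. In thinned cells 4 were higher and 5 lower, with a median of -0.036. The median of this list thus changed sign with thinning. DESeq2 called 4 higher and 1 lower, as did the test without the library as a block. Tnfrsf11a, the receptor for RANKL, stood at 0.86 and 1.00 per 10000 UMIs against 0.34 and 0.48 (1.22, SE 0.11, adjusted p = 0.00052), and T cells held 0.030 and 0.014. Csf1r was at 3.01 and 4.03 against 2.06 and 2.72 (0.59, SE 0.09) and the adaptor Tyrobp (DAP12) at 24.3 and 26.2 against 16.4 and 17.6 (0.60, SE 0.06). The partner adaptor Fcer1g was lower, at 8.58 and 8.14 against 18.0 and 17.0 (-1.03, SE 0.07). Pik3cb (1.77), Btk (0.64) and Sirpa (0.39) were higher, Vav3 (-0.88) and Plcg2 (-0.65) lower, and Traf6, which carries the RANK signal, did not pass the test (0.28, SE 0.21, adjusted p = 0.33).

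Among 18 transcription factors that act for osteoclast formation 9 were higher and 4 lower (median 0.73). Nfatc1, the master regulator, was at 3.31 and 4.60 per 10000 UMIs against 0.34 and 0.42 in C1q macrophages (log2 fold change 3.41, SE 0.12, adjusted p = 2.5e-05) and 0.56 and 0.58 in T cells. The coactivator of mitochondrial biogenesis Ppargc1b stood at 0.705 and 0.911 against 0.057 and 0.11 (3.36, SE 0.17), and its partner Esrra rose by 0.96 (SE 0.18). Jdp2 (2.14), the repressor Prdm1 (2.06), which silences inhibitors of the osteoclast program, Fosl2 (1.91), Mitf (1.54) and Myc (0.87) were higher. Batf (-2.45) and Relb (-0.62) were lower.

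Genes listed as factors that hold osteoclast formation back moved the other way, with 8 of 10 tested lower and 1 higher (median -1.66). Irf8 was at 0.16 and 0.24 per 10000 UMIs against 1.54 and 1.77 (log2 fold change -3.04, SE 0.15, adjusted p = 6.6e-05). Maf (-2.48, SE 0.28), Bcl6 (-2.31, SE 0.26), Rbpj (-1.31, SE 0.11) and Id2 (-1.01, SE 0.10) were also lower. Irf4 (-2.02, SE 0.47) counts among the 8 as well, though its place in this list is uncertain. Irf8 in T cells stood at 0.49 and 0.45, above the Ctsk-high cells.

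The vacuolar proton pump, which acidifies lysosomes in every cell and the resorption pit in osteoclasts, rose through most of its parts. Of 16 subunit genes tested, 13 were higher and 1 lower (median 1.76), and the 17 genes in the files together took 108.3 and 113.3 per 10000 UMIs against 35.6 and 31.9. Atp6v1b2 was at 6.00 and 7.95 against 0.82 and 1.09 (log2 fold change 2.90, SE 0.09), Atp6v1a at 4.84 and 5.40 against 1.17 and 0.89 (2.35, SE 0.16) and Atp6v0c, the ring subunit, at 36.4 and 39.2 against 10.7 and 10.9 (1.83, SE 0.07). Atp6v1d (2.35), Atp6v1c1 (2.14), Atp6v0e (1.87), Atp6v1e1 (1.82) and Atp6v1g1 (1.81) were higher. The exception was Atp6v0a1, a lysosomal isoform of the large membrane subunit, at 0.065 and 0.0295 against 0.21 and 0.24 (-2.18, SE 0.32, adjusted p = 0.0029).

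Promoters of these genes, as given by RefSeq for GRCm38.p6 from 250 bases before to 50 after the start of each gene, were searched for the E-box CACGTG (a palindrome, so 1 strand covers both), which TFEB and MITF bind, and for the AP-1 site TGACTCA on both strands. The E-box was in 8.09% of the 27025 genes with such a window, in 4 of 12 V-ATPase genes matched, in 6 of 22 genes of the cathepsin and lysosome list and in 1 of 19 of the fusion and resorption list, Clcn7. The AP-1 site was in 5.95% of all genes in 2 of those 19, Rufy4 and Snx10, and in 5 of 17 matched chemokine and cytokine genes, a list that was mostly lower in Ctsk-high cells. The letters GGAAA, the core of NFAT sites, were searched on both strands as well, and were in 64.4% of all genes and 57.9% of the fusion and resorption list. A match is a description and not a bound site, and no match says only that these letters were not in the window. The 250 bases before the start are shown for Atp6v1a, Atp6v0b, Clcn7 and Rufy4, with every copy of the motif in capitals. Among the genes with a motif that are not shown is Snx10, with its AP-1 site 98 bases before the start. Atp6v0d1 and Atp6v0e are not shown either, since their E-box runs across the start or follows it. Atp6v1a lies at chr16:44139260-44139509 on the minus strand, Atp6v0b at chr4:117887330-117887579 on the minus strand, Clcn7 at chr17:25133141-25133390 on the plus strand and Rufy4 at chr1:74125291-74125540 on the plus strand.
Atp6v1a: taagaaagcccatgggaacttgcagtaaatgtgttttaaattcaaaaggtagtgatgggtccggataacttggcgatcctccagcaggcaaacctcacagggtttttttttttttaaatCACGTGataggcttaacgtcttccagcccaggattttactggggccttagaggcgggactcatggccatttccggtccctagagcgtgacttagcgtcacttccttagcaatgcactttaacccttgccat
Atp6v0b: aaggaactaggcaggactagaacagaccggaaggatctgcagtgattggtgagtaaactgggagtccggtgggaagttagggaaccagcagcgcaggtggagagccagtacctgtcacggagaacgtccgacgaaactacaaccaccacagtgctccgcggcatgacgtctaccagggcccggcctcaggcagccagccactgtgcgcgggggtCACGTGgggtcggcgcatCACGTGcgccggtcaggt
Clcn7: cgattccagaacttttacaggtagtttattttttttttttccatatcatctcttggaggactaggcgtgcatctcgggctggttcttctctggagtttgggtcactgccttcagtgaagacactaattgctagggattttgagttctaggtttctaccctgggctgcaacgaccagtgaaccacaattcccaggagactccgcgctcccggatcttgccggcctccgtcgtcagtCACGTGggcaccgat
Rufy4: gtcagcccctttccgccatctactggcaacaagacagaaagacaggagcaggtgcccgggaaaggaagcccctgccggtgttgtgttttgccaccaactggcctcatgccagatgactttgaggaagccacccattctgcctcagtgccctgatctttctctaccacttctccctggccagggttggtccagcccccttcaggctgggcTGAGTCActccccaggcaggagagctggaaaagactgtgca
The E-box began 131 bases before the start in Atp6v1a and 15 in Clcn7, while the first of the copies in Atp6v0b began 36 bases before it. The AP-1 site of Rufy4, read on the other strand as TGAGTCA, began 41 bases before the start.

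In the list of 28 cathepsin and lysosome genes, which leaves Ctsk out, 9 were higher and 14 lower (median -0.22). Ctss, the protease of antigen presentation, was at 2.74 and 2.77 per 10000 UMIs against 11.8 and 14.4 (log2 fold change -2.21, SE 0.09), Ctsb at 5.04 and 4.62 against 10.4 and 11.7 (-1.16, SE 0.09) and Ctsc at 0.31 and 0.27 against 5.52 and 5.95 (-4.29, SE 0.12). Ctsh (-2.79), Scarb2 (-2.39), Lamp2 (-2.07), Ctsl (-1.10) and Ctsz (-0.71) were lower, and Cst3, a cysteine protease inhibitor, was slightly higher (0.33, SE 0.07). Ctsd did not pass the test (0.22, SE 0.09, adjusted p = 0.099) and stood at -0.01 in cells of at least 15000 UMIs.

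Among 15 matrix metalloproteinase and inhibitor genes tested, 2 were higher and 10 lower (median -1.51). DESeq2 called 1 higher and 7 lower. Mmp14, the membrane-anchored collagenase, was at 2.84 and 3.60 per 10000 UMIs against 0.51 and 0.64 (log2 fold change 2.53, SE 0.10, adjusted p = 3.4e-05). The macrophage elastase Mmp12 was at 0.045 and 0.050 against 1.48 and 1.76 (-5.06, SE 0.14), and Mmp13 at 0.0031 and 0.0074 against 0.19 and 0.20 (-5.18, SE 0.37). Timp2 was slightly higher (0.36, SE 0.09). Mmp25 (-3.56), Mmp2 (-3.37), Plaur (-2.57), Timp1 (-2.08) and Timp3 (-1.78) were lower, and Mmp19 did not pass (0.52, adjusted p = 0.091).

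Profibrotic ligands and matrix genes were mostly low in these cells. Of 16 tested 9 were lower and 1 higher (median -1.38), and in cells of at least 15000 UMIs 8 of 15 were lower and 2 higher, among them Pdgfb (0.56, adjusted p = 0.0032). DESeq2 called 7 lower and 1 higher. Tgfb1, the main profibrotic cytokine, was at 0.47 and 0.50 per 10000 UMIs against 1.40 and 1.51 (log2 fold change -1.56, SE 0.10, adjusted p = 0.00016). Fibronectin, Fn1, was at 0.0185 and 0.0092 against 0.38 and 0.43 (-4.79, SE 0.28) and the TGF-beta-induced Tgfbi at 0.63 and 0.77 against 4.93 and 7.01 (-3.05, SE 0.10). Igf1 (-5.30), Areg (-4.34), Thbs1 (-2.13) and Sparc (-1.27, adjusted p = 0.049) were lower too. The growth factor genes Pdgfa (-0.19), Pdgfb (0.32) and Pdgfc (-1.75, on at most 0.021 per 10000 UMIs) did not pass.

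Genes of antigen presentation by MHC class II were low. Of 14 tested 13 were lower and 1 higher (median -2.95). H2-Aa stood at 3.07 and 3.13 per 10000 UMIs against 38.8 and 48.9 (log2 fold change -3.78, SE 0.09, adjusted p = 8.5e-06), H2-Ab1 at 3.49 and 3.31 against 42.0 and 48.2 (-3.69, SE 0.08), and H2-Eb1 at 2.80 and 3.00 against 43.3 and 57.4 (-4.07, SE 0.09). In T cells H2-Aa was at 3.38 and 3.19, close to the summed level in Ctsk-high cells. With cells thinned to 3000 UMIs it was found in 50.8% and 42.5% of Ctsk-high cells, 24.3% and 15.6% of T cells and 90.2% and 93.5% of C1q macrophages. The invariant chain Cd74 was at 17.7 and 18.1 against 107 and 118 (-2.62, SE 0.05), above T cells at 10.2 and 9.36. The class II transactivator Ciita (-2.90), the costimulators Cd86 (-4.68) and Cd80 (-3.27), H2-Oa (-3.06) and H2-DMa (-3.00) were lower. Single cells varied: among the 184 deep cells of library 1 the 10th percentile, median and 90th percentile of Cd74 were 1.39, 10.7 and 40.7 per 10000 UMIs, and the highest cell held 123.

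Genes of resident macrophages were low in most cases, with 15 of 18 tested lower and 2 higher (median -2.72; 15 and 3 in cells of at least 15000 UMIs). The fractalkine receptor Cx3cr1 was at 0.019 and 0.081 per 10000 UMIs against 2.02 and 2.43 (log2 fold change -5.54, SE 0.34), F4/80 (Adgre1) at 0.015 and 0.022 against 1.02 and 1.00 (-5.72, SE 0.19), and the mannose receptor Mrc1 at 0.0093 and 0.024 against 0.88 and 1.08 (-5.88, SE 0.23). T cells held 0.12 and 0.10 for Cx3cr1, 0.026 and 0.018 for Adgre1 and 0.032 and 0.029 for Mrc1. All 3 were thus below or near the T cell level in Ctsk-high cells. Mertk (-4.93), Cd14 (-4.68), Cd81 (-4.12), Stab1 (-3.70) and Fcgr4 (-2.78) were lower. The summed level of Apoe was 21.1 and 17.6 against 47.1 and 70.8 (-1.56, SE 0.17), with a log2 fold change of -0.79 in cells of at least 15000 UMIs. The median cell of that depth went the other way for Apoe, at 15.6 and 11.9 in Ctsk-high cells against 3.40 and 7.95 in C1q macrophages, whose 90th percentiles were 69.0 and 172 against 52.2 and 48.4. The macrophage marker Cd68 stood at 7.69 and 8.91 against 3.97 and 4.66.

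Lysozyme and most monocyte genes were low. Lyz2 was at 1.58 and 0.41 per 10000 UMIs against 50 and 67.4 (log2 fold change -6.06, SE 0.56, adjusted p = 5e-04), below the T cells at 2.38 and 2.00. Most deep Ctsk-high cells had no Lyz2 UMI, and it was found in 65 of 184 and 31 of 150 of them, with highest values of 151 and 55.5 per 10000. Of 12 monocyte genes tested 10 were lower and 1 higher (median -3.10, or -2.42 with the gene at 0 set to its bound), and in cells of at least 15000 UMIs 8 of 10 were lower and 2 higher. Ccr2, the receptor that brings monocytes into tissue, was at 0.029 and 0.0074 against 0.95 and 1.33 (-5.82, SE 0.35). Chil3 (-3.97), F10 (-3.83), Ifitm6 (-3.60), Plac8 (-2.61) and Ly6c2 (-2.24) were lower, and F13a1 had no UMI in Ctsk-high cells against 15 and 11 in C1q macrophages, at least 5.11-fold and 4.06-fold lower.

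Chemokine and cytokine genes gave the largest median fall of the 31 lists. Of 24 tested 23 were lower and 1 higher (median -4.39, or -4.06 with the gene at 0 set to its bound). Ccl2, which attracts monocytes, was at 0.20 and 0.039 per 10000 UMIs against 12.4 and 12.9 (log2 fold change -6.77, SE 0.48), below T cells at 0.60 and 0.33. Ccl4 was at 1.36 and 0.77 against 74.1 and 57.3 (-5.96, SE 0.12) and Il1b at 0.19 and 0.11 against 6.96 and 8.33 (-5.63, SE 0.24). Tnf was at 0.32 and 0.26 against 4.12 and 3.20 (-3.63, SE 0.11). Ccl12 (-7.71), Ccl8 (-7.56), Ccl7 (-6.78), Ccl3 (-5.86), Ccl6 (-5.43) and Tnfsf9 (-4.85) were lower, and Il6 had no UMI against 45 and 25, at least 15.3-fold and 9.23-fold lower. The exception was Ccl9, a chemokine of the osteoclast lineage, at 6.87 and 10.1 against 3.69 and 5.03 (0.98, SE 0.09, adjusted p = 0.00039).

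The other large falls named by rule were of surface receptors, a ubiquitin ligase, a collagen and 1 metabolic enzyme. Lilra5, an activating immunoglobulin-like receptor, and the ubiquitin ligase March1, which removes MHC class II from the surface, had no UMI in any Ctsk-high cell. In C1q macrophages Lilra5 gave 173 and 123 UMIs (at least 58.9-fold and 45.4-fold lower in Ctsk-high cells) and March1 gave 121 and 124 (at least 41.2-fold and 45.8-fold). Fcrls (-7.83), Fcgr1 (-7.31), Acod1, which makes itaconate (-7.25), and Col14a1 (-7.01) followed.

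Receptors for immunoglobulin and for phagocytosis fell as a list, with 14 of 15 tested lower and 1 higher (median -2.78). Fcgr3 was at 0.054 and 0.018 per 10000 UMIs against 1.63 and 2.36 (log2 fold change -5.67, SE 0.35) and the inhibitory Fcgr2b at 0.27 and 0.23 against 1.32 and 1.86 (-2.61, SE 0.18). The sialoadhesin Siglec1 (-5.78), Clec4n (-4.52), Itgax (-4.31) and Cd36 (-4.19) were lower. Of 10 complement genes outside C1q 7 were lower and none higher (median -1.55), among them C5ar1 (-6.31), C3 (-5.03), C3ar1 (-3.58), C4b (-1.65), Cfb (-1.44) and Cfp (-1.12). DESeq2 called 6 lower and none higher, and no gene of the list had a positive log2 fold change.

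Interferon response genes were lower in 19 of 20 tested and higher in none (median -2.40); DESeq2 called 18 lower and none higher, and no gene of the list had a positive log2 fold change. Ifit1 was at 0.22 and 0.052 per 10000 UMIs against 2.60 and 1.33 (log2 fold change -3.91, SE 0.23) and Isg15 at 0.88 and 0.56 against 6.83 and 4.54 (-2.96, SE 0.10). Ifit2 (-4.96), Rsad2 (-4.76), Oasl1 (-3.56), Ifi205 (-3.26), Ifit3 (-3.14) and Irf7 (-2.18) were lower.

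Genes of lipid-associated macrophages, a state described in injured tissue, were split, with 4 of 20 tested higher and 10 lower (median -0.49). The lipid sensor Trem2 was at 1.32 and 1.86 per 10000 UMIs against 2.53 and 3.12 (log2 fold change -0.81, SE 0.11), and Cd36 was also low, as above. Gpnmb was at 0.53 and 0.52 against 0.26 and 0.42 (0.70, SE 0.17, adjusted p = 0.022), but at 0.09 in cells of at least 15000 UMIs. Lpl (0.70, SE 0.09) and Cd9 (0.73, SE 0.12) were higher, and Fabp5 (-0.61), Lgals3 (-0.25), Lgals1 (-1.45), Lipa (-1.50), Abca1 (-1.51) and Fabp4 (-1.76) lower.

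All 40 listed genes of the nuclear-encoded respiratory chain were tested and called higher. Genes of the chain outside the list are not given here. Log2 fold changes of the 40 ran from 0.84 to 2.10, with a median of 1.29. Together the 40 genes took 334.6 and 322.8 per 10000 UMIs against 158.3 and 128.3 in C1q macrophages and 157.2 and 128.4 in T cells. Cyc1 of complex III was at 5.66 and 5.58 against 1.49 and 1.20 (2.10, SE 0.12), Sdha of complex II at 2.75 and 2.94 against 0.85 and 0.78 (1.83, SE 0.11) and Atp5a1 of the ATP synthase at 9.20 and 9.51 against 4.21 and 3.32 (1.35, SE 0.12). Ndufa4 (1.76), Ndufs1 (1.76), Uqcrc2 (1.75), Sdhb (1.47), cytochrome c (Cycs, 1.41), Ndufb8 (1.07) and Cox5a (1.03) were higher as well. DESeq2, the thinned cells and the cells of at least 15000 UMIs each called all 40 higher. The median share of mitochondrial UMIs was 7.03% and 5.26% in Ctsk-high cells against 4.64% and 3.45% in C1q macrophages.

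Glycolysis genes were higher in 11 of 18 tested and lower in 3 (median 0.50). Aldoc (3.11, SE 0.31), Pdk1 (1.53), Aldoa (1.52), Hk1 (0.77), Ldha (0.58) and Pkm (0.34) were higher and the lactate exporter Slc16a3 lower (-2.34). Hk2 (0.15), Hk3 (-0.08) and Pfkl (-0.32) did not pass. Of 16 genes of glutamine and amino acid use 3 were higher and 4 lower (median -0.05), and in cells of at least 15000 UMIs 1 was higher and 4 lower. Glud1 (0.27, adjusted p = 0.072) and Glul (-0.11) did not pass. The glutamine carrier Slc1a5 (1.42, SE 0.11) and Asns (0.94) were higher, and the cystine carrier Slc7a11 (-4.98, SE 0.30), its partner Slc3a2 (-0.75) and Psat1 (-0.92) lower.

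Iron genes were higher in 5 of 15 tested and lower in 5 (median -0.05). The transferrin receptor Tfrc was at 1.19 and 1.29 per 10000 UMIs against 0.090 and 0.051 (log2 fold change 4.13, SE 0.22, adjusted p = 8.3e-05). The ferritin heavy chain Fth1 was slightly lower, at 84.6 and 74.9 against 112 and 96.8 (-0.36, SE 0.05), and the phagosomal carrier Slc11a1 (-2.91), Trf (-2.40) and Cp (-2.24) were lower. Ftl1 (-0.10), Hmox1 (-0.05), Slc11a2 (0.39) and the exporter Slc40a1 (-1.22, adjusted p = 0.12) did not pass.

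Genes of podosomes, the actin rings by which osteoclasts attach, were higher in 13 of 27 tested and lower in 4 (median 0.14). Src, the kinase osteoclasts need to resorb, was at 0.64 and 0.92 per 10000 UMIs against 0.088 and 0.12 (log2 fold change 2.90, SE 0.14, adjusted p = 5.3e-05). Cttn (2.61), Actn1 (2.38), Rhou (2.29), Rac2 (1.55), Tns3 (1.46), Vcl (1.03), Pxn (0.94) and Tln1 (0.32) were higher, and Gsn did not pass (-0.04).

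**Figure D3:**
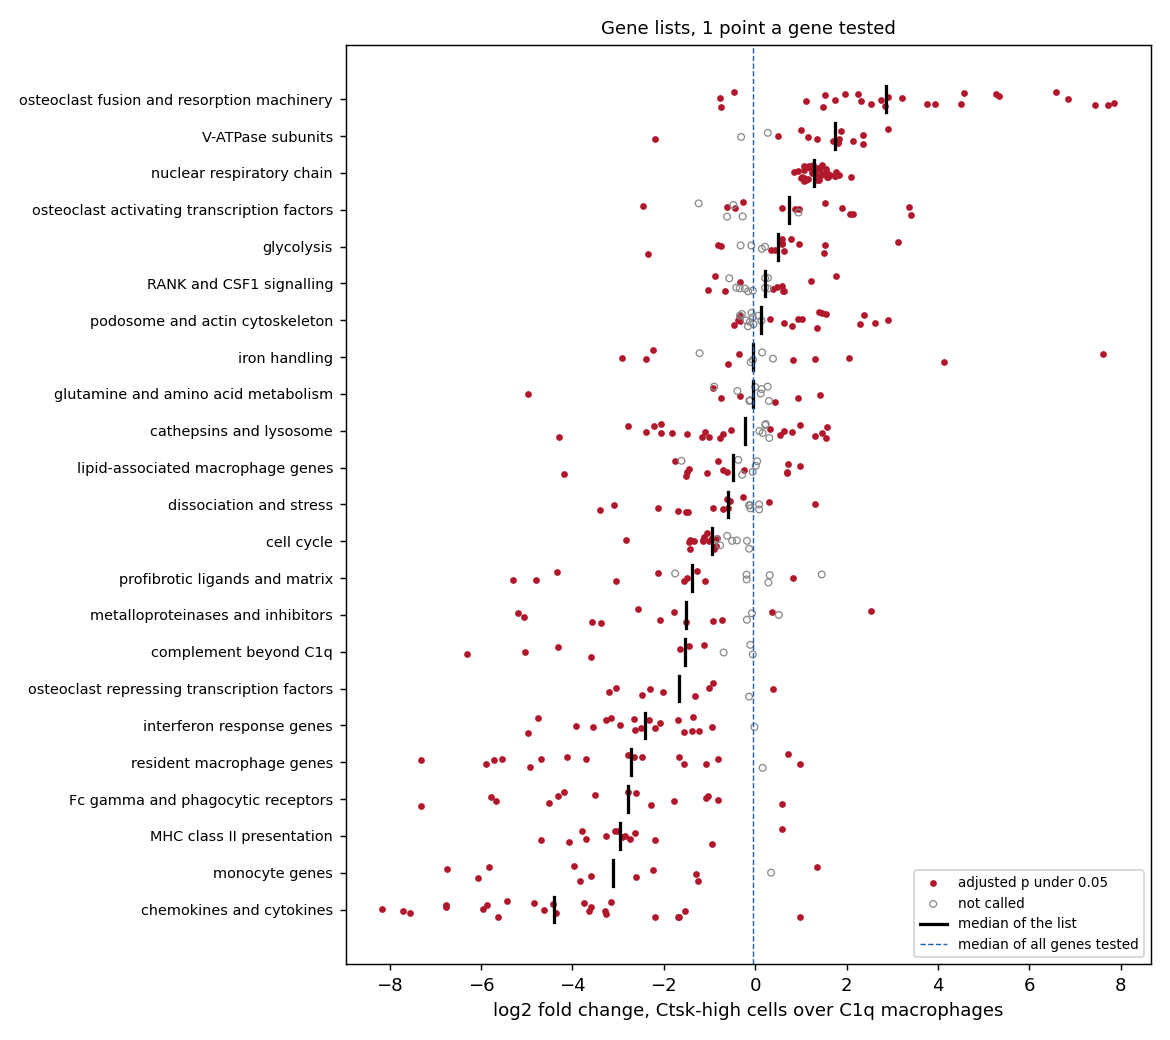
Log2 fold change of Ctsk-high cells over C1q macrophages (x axis) for each tested gene of 23 lists (y axis), red where the edgeR adjusted p was under 0.05 and open grey otherwise, with the list's median as a black bar and the median of all genes tested (-0.05) as a dashed line. Medians run from -4.39 for chemokines and cytokines to 2.87 for fusion and resorption machinery.

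Cell cycle genes were present and lower. Of 21 tested 14 were lower and none higher (median -0.94), every fold change was negative, and 21 were lower in cells of at least 15000 UMIs; DESeq2 called 9 lower and none higher. Mki67 was at 0.89 and 0.49 per 10000 UMIs against 1.60 and 1.85 (log2 fold change -1.33, SE 0.23, adjusted p = 0.0056). Ccnd1 (-2.82), Stmn1 (-1.46), Ccne1 (-1.44), Mcm3 (-1.42), Tyms (-1.15) and Top2a (-0.89) were lower, while Ccnb1 (-0.13) and Cdk1 (-0.18) did not pass. With deep cells thinned to 15000 UMIs, at least 5 UMIs over 8 genes of mitosis were found in 23.4% (95% exact interval 17.5 to 30.2%) and 14% (8.88 to 20.6%) of Ctsk-high cells and in 53.6% (43.9 to 63.2%) and 39.7% (31.4 to 48.4%) of C1q macrophages. Before thinning the shares were 26.6% and 22%, against 58.2% and 45.6%. The limit of 15000 UMIs kept 110 of 788 and 136 of 329 C1q macrophages. Over cells of every depth, unthinned, the shares lay closer together. They were 18.5% (15.2 to 22.3%) and 22.1% (15.8 to 29.5%) of Ctsk-high cells. In C1q macrophages they were 19.2% (16.5 to 22.1%) and 27.7% (22.9 to 32.8%).

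Genes of tissue dissociation and stress were not raised as a list: 2 of 19 were higher and 12 lower (median -0.60), with 4 higher and 8 lower (median -0.21) in cells of at least 15000 UMIs. Atf3 (-3.39), Btg2 (-3.08), Ier3 (-2.13), Dusp1 (-1.70), Egr1 (-1.47), Jun (-0.60) and Fos (-0.27) were lower. The heat shock genes Hspa1a (-0.11) and Hspa1b (-0.10) did not pass, but in cells of at least 15000 UMIs they were called higher (0.35, adjusted p = 0.014, and 0.54, adjusted p = 0.0047). Fos stood at 0.10 there and was not called. Jun (-0.21, adjusted p = 0.19) was not called there either, nor were Vav3 (-0.59, adjusted p = 0.065), Pkm (0.17, adjusted p = 0.17) and Asns (0.69, adjusted p = 0.12) of the lists above. Tspan10, Mmp2, F13a1 and Ifitm6 did not pass the filter on low counts in those cells.

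Transcripts of other cell types were found in both groups and are given as sums. Proximal tubule genes took 15 and 1.06 per 10000 UMIs in Ctsk-high cells against 27.9 and 5.33 in C1q macrophages, and other tubule genes 15.7 and 1.53 against 23.3 and 2.41. The sums of T and NK genes were 2.94 and 1.46 against 10.5 and 4.12, of B cell genes 0.43 and 0.42 against 1.5 and 1.62, of neutrophil genes 0.75 and 0.055 against 1.02 and 0.21, and of endothelial and stromal genes 0.47 and 0.15 against 1.20 and 0.70. Those of dendritic cell genes, which include Cst3, were 26.3 and 27.0 against 23.0 and 21.3, and of mast cell, basophil and red cell genes 0.031 and 0.0074 against 0.057 and 0.016. Of the tested genes in these 8 lists 1 (Cst3) was called higher. Tubule sums were 10 or more times those of library 2 in the Ctsk-high cells of library 1.

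The cells varied among themselves along Ctsk. Deep cells were divided by their Ctsk share into 3 equal sets, of 61 or 62 cells in library 1 and 50 in library 2, which is a description since Ctsk chose the cells. From the set lowest in Ctsk to the highest Ckb went from 2.70 to 16.8 to 30.5 per 10000 UMIs in library 1 and from 2.92 to 13.4 to 19.7 in library 2. Dcstamp went from 0.39 to 1.70 to 2.54 and from 0.73 to 1.77 to 2.54, and Slc9b2 from 1.69 to 3.79 to 6.05 and from 1.81 to 3.41 to 6.25. Nfatc1 went from 2.92 to 3.74 to 4.50 and from 3.41 to 4.89 to 5.53, a smaller relative step, and Csf1r from 2.17 to 3.23 to 4.62 and from 2.90 to 3.79 to 5.38. These genes were thus highest in the cells richest in Ctsk, in both libraries.

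Proliferation ran the other way. Mki67 went from 1.51 to 1.17 to 0.026 per 10000 UMIs in library 1 and from 1.15 to 0.29 to 0.022 in library 2, and Top2a from 1.82 to 1.46 to 0.064 and from 1.30 to 0.38 to 0.12. H2-Aa went from 4.31 to 1.94 to 1.86 and from 4.26 to 2.51 to 2.66, and Cd74 from 22.3 to 14.3 to 15.7 and from 19.4 to 16.1 to 19.0. H2-Aa thus did not fall at each step in library 2, nor Cd74 in either library. Lyz2 went from 3.73 to 0.15 to 0.12 and from 1.10 to 0.089 to 0.066. The median mitochondrial share rose with Ctsk, from 3.65% to 6.82% and from 3.87% to 7.61%, and the median depth stayed between 24502 and 27898 and between 34180 and 35357 UMIs. The set highest in Ctsk was thus low in Mki67, Top2a and Lyz2 in both libraries.

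**Figure D4:**
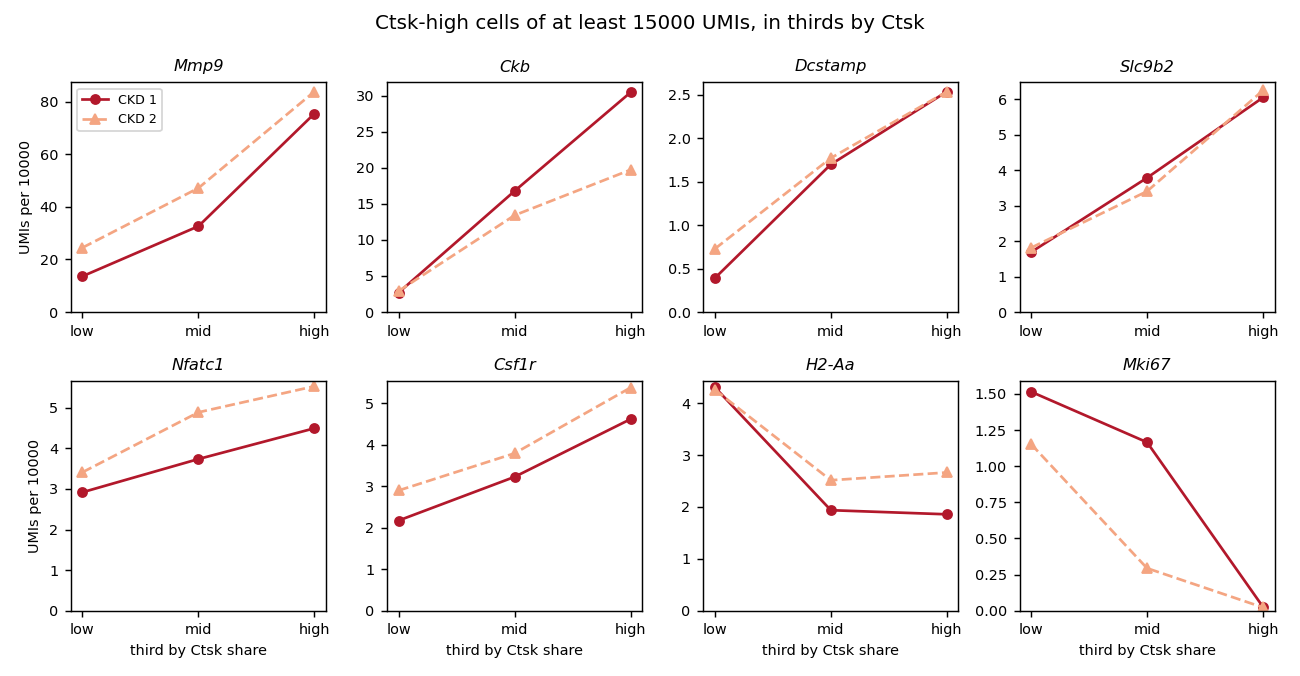
UMIs per 10000 of 8 genes (y axes, from 0) in 3 equal sets of Ctsk-high cells of at least 15000 UMIs, lowest, middle and highest in their Ctsk share (x axis), for CKD library 1 (dark circles) and 2 (light triangles). Ckb climbs from 2.70 to 30.5 and from 2.92 to 19.7, and Mki67 drops from 1.51 to 0.026 and from 1.15 to 0.022.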

How the data were processed

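Kidney cells were sequenced in droplets (10x Chromium, 3′ kit version 2 per the labels). The authors deposited raw UMI counts, whole numbers per gene and barcode, 1 matrix a library, with 90028670 to 121316769 UMIs and 10873 to 22034 barcodes. The submitters' processing notes name Cell Ranger 7.2.0, STAR and GRCm39, the file headers of the 4 AAI libraries name Cell Ranger 5.0.0, and the gene list of the control names mm10. The study's removal of free RNA and doublets is not part of the deposited counts.

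Cells were gated as described, and no doublet caller was run beyond the limits on Cd3 and Col1a2. UMIs were summed per library and group and tested with edgeR 4.0.16 (TMM, filterByExpr, quasi-likelihood, library as block, Benjamini-Hochberg over all genes tested, adjusted p under 0.05), with DESeq2 1.42.0 as an alternative. Levels are UMIs per 10000 UMIs of the summed cells, and fold changes are on the log2 scale. Exact binomial intervals (95%) and the floor of 3 UMIs cover counting error only. Counts of 11259 genes were also simulated, with 196 of them changed. Of the genes changed 2-fold 77.8% were called, and of those changed 4-fold 97.9%, with 12 false calls. Every simulated gene had the same spread (the common dispersion, 0.0115), and the libraries did not differ in profile. In the data 37.6% of genes were called, so these numbers do not give the power or false calls of the real test.

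Genes were named by rule: the 8 largest rises and 8 largest falls among called genes with the same sign in both libraries and at least 50 UMIs in the higher group, the core genes of each list, and at most 4 further called genes a list; genes of other cell types are given as sums. Some genes of the lists are not reported here by name but count in the lists' numbers. The members and the 31 lists were chosen with earlier results of these data known.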

Additional observations from a re-analysis of the deposited data

Results flagged for a closer look

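Cells that pass the gate of the CKD libraries also occurred outside them. AKI library 1 held 2 such cells and AKI library 2 held 6, at 21253 to 79042 UMIs, while the 2 barcodes of the control library that passed held 603 and 684 UMIs and shared their barcodes with far deeper cells of CKD library 2. None of the 8 AKI cells shared a barcode with a CKD library. In AKI library 2, 1 of the 6 cells shared its barcode with the control library, and neither barcode of that pair was over 20 times deeper. The AKI cells were looked at because they lie outside the comparison within the CKD libraries, and were too few for a sum over cells to be compared.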

How the results depend on the processing

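The number of Ctsk-high cells followed the gate and the depth: CKD library 1 held 278 with at least 20 UMIs of Ctsk and of Acp5, 806 with at least 5 and 184 among cells of at least 15000 UMIs, a limit chosen after seeing the data. Of the 4344 genes called against C1q macrophages (2016 higher, 2328 lower), DESeq2 called 2094 (952 and 1142), cells thinned to 3000 UMIs gave 2364 (1111 and 1253), cells of 5000 to 20000 UMIs, of which CKD library 2 held only 9 Ctsk-high ones, gave 1521 (612 and 909), and an absolute log2 fold change of at least 1 with an adjusted p under 0.01 left 1835 (741 and 1094). Without the pairing of the sums by library (no replicate block) 2663 genes were called (1261 and 1402), all of them among the 4344 and with the same sign. The pairing comes from the design, since both sums of a pair are cells of the same library. Within 1.5 times the count were size factors in place of TMM, no filter on low counts, a mitochondrial limit of 15%, gates of 20 or 5 UMIs, the removal of cells with markers of another type, comparison cells without Ctsk, comparison cells with no limit on Cd3 and Col1a2, and cells of at least 15000 UMIs. With a single library left no test could be made.

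Of 223 genes named, 203 were called, and 6 of these changed direction under an alternative with a test. In cells of 5000 to 20000 UMIs these were Sparc (0.28), Fabp4 (0.11), Pkm (-0.071) and Tln1 (-0.31), in thinned cells Fabp5 (0.0019), and in cells of at least 15000 UMIs Fos (0.10), none of them called there. Other called genes kept their direction but lost their call. These were 31 in DESeq2, 34 without the replicate block and 34 in cells of 5000 to 20000 UMIs. With gates of 5 UMIs they were 16, in thinned cells 11, and under each other alternative with a test at most 7. Genes that had not been called also changed sign. In cells of 5000 to 20000 UMIs these were Pdgfa (0.012), Slc11a2 (-0.168) and Ccnb1 (0.11). In cells of at least 15000 UMIs they were Ctsd (-0.0069), Hk3 (0.18), Glul (0.042), Hmox1 (0.12), Hspa1a (0.35) and Hspa1b (0.54), of which the heat shock genes were called. With thinning they were Hk2 (-0.028), Ccnb1 (0.068) and Cdk1 (0.32). With a gate of 20 UMIs they were Hk3 (0.029) and Gsn (0.0059). With no limit on Cd3 and Col1a2 in the comparison cells they were Hk3 (0.14), Ftl1 (0.049), Hmox1 (0.16), Gsn (0.12), Hspa1a (0.043) and Hspa1b (0.076). The cause was not tested.

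A comparison with Fn1-positive macrophages needed 20 such cells in each library; with 12 and 17 it was not made, and its alternatives were not run. The Ctsk-high cells of CKD library 1 were mostly shallow and carried more tubule RNA, and the p-values rest on 2 libraries with 1 residual degree of freedom.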
